A study of Mus musculus with 12 samples.

Results

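The mitochondrial protein import machinery is the set of receptors, channels, chaperones and processing enzymes that bring proteins into mitochondria. Its genes were taken as all features whose symbol starts with Timm or Tomm followed by a digit, pseudogene names with -ps left out, together with Pmpca, Pmpcb, Grpel1, Pam16, Dnajc19, Samm50, Mtx1, Mtx2, Chchd4 and Gfer. Of the 54751 features in the deposited table, 36 met this naming rule, and 34 of them had a mean of at least 10 normalised counts over the 6 libraries. The 36 comprise 15 Timm features, 11 Tomm features and the 10 added genes. The nearest member below the limit, Tomm20l, a paralog of Tomm20, averaged 0.537 normalised counts, and Timm8a2 averaged 0.345. The nearest above it, Tomm6os, a noncoding transcript opposite Tomm6, averaged 11.6 normalised counts.

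Nearly all mitochondrial proteins are made in the cytosol and enter through a chain of translocases. The translocase of the outer membrane (TOM) recognises precursors and passes them through the Tom40 channel. From there the sorting and assembly machinery (SAM) builds outer membrane barrels, the Mia40 pathway oxidises small proteins in the intermembrane space, small TIM chaperones carry hydrophobic proteins to the TIM22 complex, and precursors with a presequence go through the TIM23 channel. An Hsp70 motor on the matrix side pulls presequence proteins in, and the matrix processing peptidase removes the presequence. In heart muscle, which is dense in mitochondria, this traffic supplies the nuclear-encoded part of the respiratory chain.

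The samples are hearts of C57BL/6N mice aged 52 weeks, sequenced as total RNA after removal of cytoplasmic ribosomal RNA. Libraries labelled knockout (KO, n = 3) carry loxP sites on both Rexo2 alleles plus an allele named Ckmm, and control libraries (labelled WT, n = 3) carry the loxP-flanked alleles alone. The name Ckmm refers to muscle creatine kinase, and Cre recombinase is commonly driven from its promoter in heart and skeletal muscle, so that non-muscle cells of the heart would keep Rexo2. Rexo2 encodes an oligoribonuclease that degrades very short RNAs in mitochondria and the cytosol. The comparison addresses whether a knockout of this enzyme goes with altered expression of the import genes. Effects of the Ckmm allele itself and of Rexo2 loss cannot be told apart, because the controls lack that allele. In bulk tissue, fewer cells of a type and less RNA per cell cannot be told apart. The labels do not say that each library came from a separate mouse. The p-values below therefore reflect only variation among these libraries, part of which may be technical.

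Depth was 41979163 to 49722049 reads in KO and 43561069 to 50764023 in WT libraries. Rexo2 held 274, 288 and 314 normalised counts in KO 492, 499 and 501, against 330, 368 and 293 in WT 490, 498 and 502. These ranges overlapped, and a count per gene does not check a deletion of single exons, so KO refers to the label. WT 490 lay at -30.1 on the first principal component of all tested features, whereas the other libraries lay between -5.63 and 16.7. Features of mitochondrial DNA took 71.6 ± 0.23% of reads in KO and 69.6 ± 0.35% in WT libraries (SD, n = 3 each). Cardiomyocyte markers were abundant throughout, at summed values of 623255 to 665053 in KO and 636916 to 682707 in WT hearts. The 5 adipocyte markers summed to at most 5.64 in KO and 3.05 in WT libraries. Of the 10 marker lists, 1 had summed values that did not overlap, the skeletal muscle list, at 18209 to 19476 in KO against 15699 to 17051 in WT hearts. Acta1, a sarcomeric actin also made in heart, carried that difference at 5060 ± 663 in KO and 3361 ± 1045 in WT hearts. Ckm held 13581 ± 276 in KO and 13198 ± 395 in WT hearts, Myh4 was at 0 in every library, and Myh1, Myh2, Myog and Tnnt3 were at most 9.47. The part of this difference in the values below was not tested.

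None of the import genes passed the test of a difference between KO and WT hearts. Of the 34 members tested, limma called 0 at an adjusted p under 0.05, where 0.0219% of the 18250 features tested were called. No member reached an unadjusted limma p under 0.05 either, against 3.7% of all features. edgeR and DESeq2 on recovered reads also called 0 members, and 0 had an unadjusted p under 0.05 in either. DESeq2 gave an adjusted p to only 16 members. Of the 23 members with an adjusted p in the authors' deposited table, 0 were called, against 0.437% of the features with one. Without WT 490, the library that stood apart, limma also called 0 members, and their median log2 fold change was 0.030. The lowest limma p of a member was 0.082, for Tomm20, and every adjusted p of a member rounded to 1.00.

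The log2 fold changes, KO over WT, had a median of 0.0079 over the members, with 20 above 0 and 14 below, beside a median of 0.00056 over all tested features. Under equal library totals, where the median of all features was -0.069, 11 lay above 0 and 23 below, and leaving out 1 library gave 17 above and 17 below (without KO 501) to 23 above and 11 below (without KO 499). They ran from -0.13 for Timm22 to 0.12 for Tomm20, apart from Tomm6os at 0.45 (0.18 without KO 492 and 0.69 without WT 490), and 28 of 34 lay within 0.1 of 0. All 95% intervals covered 0. For 32 members the whole interval lay inside a 1.5-fold change in either direction, which held for 13081 of all 18250 tested features. The exceptions were Tomm6 and Tomm6os, the lowest members by count, whose intervals reached 1.52-fold and 2.49-fold higher in KO hearts. The median interval reached 1.15-fold to either side of its estimate.

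**Figure D1:**
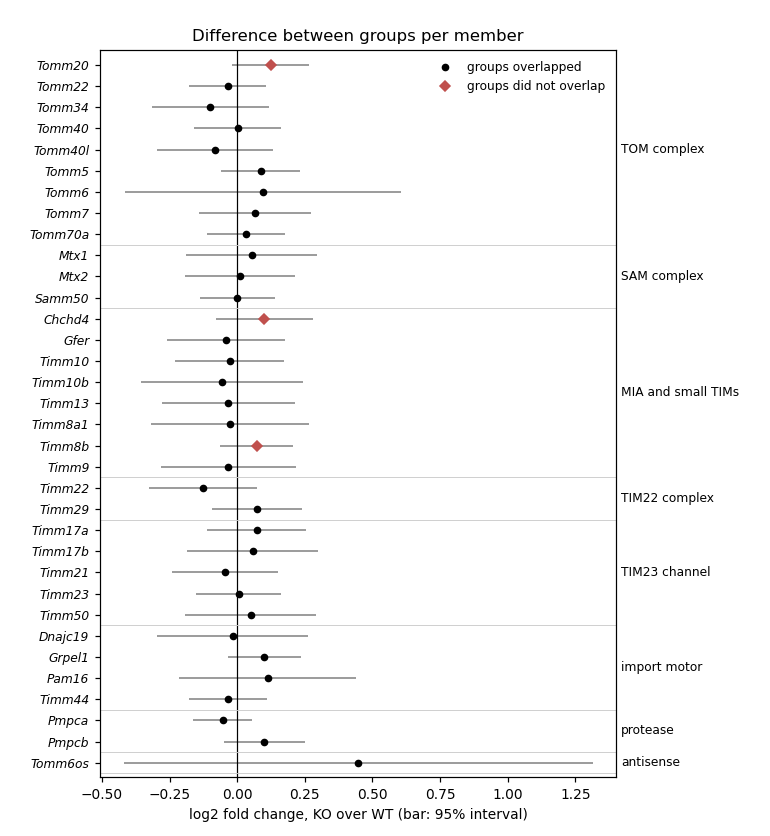
Log2 fold change of each of the 34 tested import members, KO over WT (points), with limma's 95% intervals (bars), grouped by role. Every interval crosses 0, and red diamonds mark Tomm20, Chchd4 and Timm8b, the members whose groups did not overlap.

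**Figure D2:**
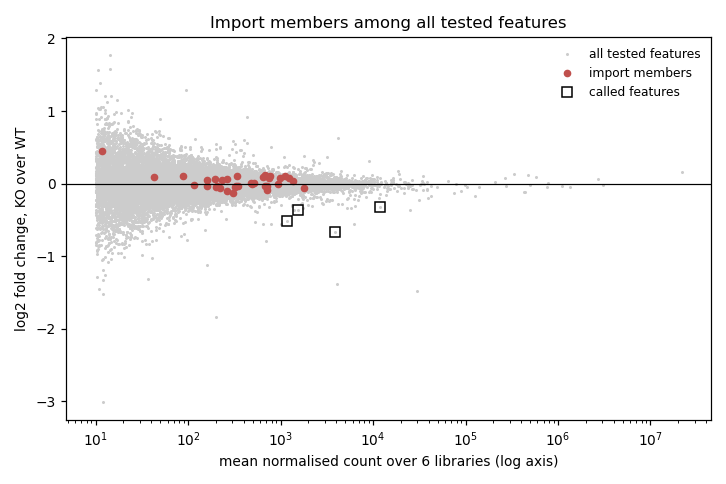
Log2 fold change, KO over WT, against the mean normalised count on a log axis for all 18250 tested features (grey), the 34 import members (red) and the 4 called features (open squares). The members other than Tomm6os lie between -0.13 and 0.12, and none is among the called features.

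The groups did not overlap in 3 members, Tomm20, Chchd4 and Timm8b, all higher in KO hearts. In all tested features 4.61% were higher without overlap, and 4.9% were lower without overlap, a pattern that 0 members showed.

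In the TOM complex, Tomm20 is the receptor that binds presequences. Tomm20 (ENSMUSG00000093904.2) held 725, 698 and 688 normalised counts in KO 492, 499 and 501, against 674, 620 and 644 in WT 490, 498 and 502. All KO libraries were above all WT libraries, and the gap between the nearest of them, 688 in KO 501 and 674 in WT 490, was smaller than the SD of either group (18.8 in KO and 27.1 in WT). The log2 fold change was 0.12 (SE 0.066), with a 95% interval from -0.018 to 0.27. It was 0.15 without WT 490 and 0.054 when libraries were scaled to equal totals, the setting that moved the median of all features below 0.

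Tomm22, the central receptor, held 671, 702 and 657 normalised counts in KO libraries, against 726, 664 and 690 in WT libraries. Tomm70a, the receptor for carrier precursors, held 1544, 1349 and 1296 in KO 492, 499 and 501, against 1366, 1398 and 1324 in WT 490, 498 and 502. Both overlapped between groups, and the high Tomm70a value belonged to KO 492 alone. Tomm40, the channel itself, held 466, 485 and 518 in KO libraries and 466, 500 and 501 in WT libraries. The group means of Tomm40 differed by 0.146%, with a 95% interval of the log2 fold change from -0.16 to 0.16. Tomm5, a small subunit, held 688, 632 and 695 normalised counts in KO libraries, against 615, 646 and 635 in WT libraries, a log2 fold change of 0.087 (SE 0.068). Among the rest of the list, log2 fold changes ran from -0.099 for Tomm34, a cytosolic co-chaperone, to 0.095 for Tomm6, a small subunit.

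For the SAM complex, Samm50, the barrel insertase, held 988, 923 and 903 normalised counts in KO libraries, against 978, 941 and 892 in WT libraries. Its means differed by 0.0793%. The metaxins Mtx1 and Mtx2, its partners on the cytosolic face, had log2 fold changes of 0.053 and 0.011, with SEs of 0.11 and 0.095. Mtx2 held 560 in KO 492 but 436 and 443 in KO 499 and 501, while WT libraries lay at 491, 472 and 457, so 1 KO library stood above and the others below every WT library.

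In the intermembrane space, Chchd4, the mouse Mia40, oxidises cysteine-rich precursors and is itself reoxidised by Gfer. Chchd4 (ENSMUSG00000034203.8) held 357, 338.0 and 347 normalised counts in KO 492, 499 and 501, against 333, 303 and 337.8 in WT 490, 498 and 502. The lowest KO and highest WT values were nearly equal, so the groups only just failed to overlap. The log2 fold change was 0.10 (SE 0.083), with a 95% interval from -0.079 to 0.28. It was 0.051 without WT 498 and 0.030 under equal library totals. Gfer overlapped between groups, with a log2 fold change of -0.041 and an SE of 0.10.

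The small TIM proteins form hexamers of Timm9 with Timm10 and of Timm8a1 or Timm8b with Timm13. Timm8b (ENSMUSG00000039016.5) held 791, 765 and 764 normalised counts in KO 492, 499 and 501, against 751, 752 and 705 in WT 490, 498 and 502. Its groups did not overlap, and the log2 fold change was 0.072 (SE 0.063), with a 95% interval from -0.063 to 0.21. It was 0.041 without WT 502 and 0.0018 under equal library totals. Timm9 held 179, 225 and 205 in KO libraries, against 232, 194 and 197 in WT libraries. Timm10 held 348, 331 and 356 in KO libraries, against 312, 390 and 357 in WT libraries. The WT range enclosed the KO range of Timm10, and the ranges of Timm9 overlapped. Of the 8 tested members of the Mia40 and small TIM list, 2 lay above 0, Chchd4 and Timm8b, and 6 below, with a list median of -0.030.

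The promoters of the 3 members without overlap are printed here, with that of Tomm22 as a further example. They are RefSeq windows of GRCm38.p6, from 250 bases before to 50 after the annotated start, 5′ to 3′ on the gene's strand. Capitals mark matches to the cores GCGCANGCG (NRF-1), CCGGAAG (ETS family, which includes GABPA) or AAGATGGC (YY1) on either strand. Tomm20 (chr8:126945872-126946171, minus strand) has an NRF-1 core at position -19 from the start, and Chchd4 (chr6:91473374-91473673, minus strand) has one at -195. Timm8b (chr9:50603651-50603950, plus strand) has an ETS core at -12 and an NRF-1 core at 19. An NRF-1 core was in 5 of the 31 members with a window, these 3 and also Pam16 and Timm13. The groups of Pam16 and Timm13 overlapped, at log2 fold changes of 0.11 and -0.033. The 3 were picked by their values in these libraries, and a link between the core and the difference was not tested. Tomm22 (chr15:79670618-79670917, plus strand) has 3 ETS cores between -47 and 5, of which the first and second overlap.
Tomm20: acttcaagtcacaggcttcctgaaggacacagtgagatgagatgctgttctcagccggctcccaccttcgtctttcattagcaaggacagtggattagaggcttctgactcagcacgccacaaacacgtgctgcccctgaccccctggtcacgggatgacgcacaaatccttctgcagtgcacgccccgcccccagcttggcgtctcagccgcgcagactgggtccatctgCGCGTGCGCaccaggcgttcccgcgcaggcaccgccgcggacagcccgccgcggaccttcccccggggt
Chchd4: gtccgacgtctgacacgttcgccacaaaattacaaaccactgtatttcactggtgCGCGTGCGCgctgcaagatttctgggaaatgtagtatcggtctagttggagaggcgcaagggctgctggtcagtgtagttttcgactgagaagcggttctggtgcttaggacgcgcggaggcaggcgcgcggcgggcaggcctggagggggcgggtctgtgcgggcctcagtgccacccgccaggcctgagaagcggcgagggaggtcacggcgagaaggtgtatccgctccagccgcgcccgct
Timm8b: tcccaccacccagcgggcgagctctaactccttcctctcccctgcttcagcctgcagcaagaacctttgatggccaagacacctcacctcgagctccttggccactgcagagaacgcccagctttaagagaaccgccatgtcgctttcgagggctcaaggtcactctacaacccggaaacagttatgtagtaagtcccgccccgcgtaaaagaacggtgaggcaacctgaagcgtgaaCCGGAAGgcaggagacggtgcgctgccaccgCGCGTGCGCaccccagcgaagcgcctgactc
Tomm22: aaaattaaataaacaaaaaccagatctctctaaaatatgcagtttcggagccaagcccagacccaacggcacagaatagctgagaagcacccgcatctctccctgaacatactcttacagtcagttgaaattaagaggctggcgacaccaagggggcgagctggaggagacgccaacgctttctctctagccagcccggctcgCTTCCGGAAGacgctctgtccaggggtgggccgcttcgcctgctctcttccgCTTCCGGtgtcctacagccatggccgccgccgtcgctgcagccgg

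Windows were found for 31 of the 34 tested members, 33 windows in all. The ETS core was in 42.4% of the member windows, against 16.3% of the 13731 windows of tested genes and 8.86% of all 32851 windows. The NRF-1 core was in 15.2% of member windows and 12.3% of windows of tested genes, and the YY1 core in 6.06% and 4.11%. At least 1 of these cores was in 57.6% of member windows, against 28.6% for tested genes. These are matches of letters in a window and do not show binding. The 13 members with an ETS core had a median log2 fold change of 0.011, and the 18 members with a window but no ETS core had one of 0.026.

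Of the 31 members with a window, 10 had the start of another gene on the opposite strand within 1000 bases upstream, which is 32.3%, against 19.2% of tested genes. Timm8b lies head to head with Sdhd, a membrane anchor subunit of succinate dehydrogenase, with 52 bases between the starts. Sdhd had a log2 fold change of -0.0033 (SE 0.046), beside 0.072 for Timm8b. Chchd4 shares its upstream region with Tmem43, 284 bases away, at a log2 fold change of -0.11 (SE 0.10). Timm23 lies 58 bases from Parg (-0.042) and Pmpca 32 bases from Entr1 (0.099). Of the 8 such neighbours that were tested, limma called 0, and their lowest unadjusted p was 0.22, for Entr1.

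At the inner membrane, the TIM22 complex inserts metabolite carriers. Timm22, its channel, held 273, 283 and 314 normalised counts in KO libraries, against 292, 337 and 320 in WT libraries. It had the lowest log2 fold change of the members, -0.13 with an SE of 0.093 and a 95% interval from -0.32 to 0.075, and its groups overlapped. Timm29, a partner known from mammals, held 1009, 939 and 1092 in KO libraries, against 913, 914 and 1064 in WT libraries, a log2 fold change of 0.073 (SE 0.077).

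In the TIM23 complex, Timm23 forms the translocase with Timm17a or Timm17b, and Timm50 receives precursors. Timm23 held 517, 491 and 538 normalised counts in KO libraries, against 541, 508 and 494 in WT libraries, a difference of 0.334% between means. Timm17a held 1412, 1198 and 1190 in KO 492, 499 and 501, against 1360, 1156 and 1103 in WT 490, 498 and 502. In each group 1 library was thus high in Timm17a, KO 492 and WT 490, and the others lay together. Timm17b held 195, 181 and 226 in KO libraries, against 189, 207 and 181 in WT libraries. Timm50 held 236, 214 and 264 in KO libraries and 202, 242 and 246 in WT libraries. Timm21, an accessory subunit, held 318, 328 and 306 in KO libraries, against 349, 342 and 293 in WT libraries. The WT range enclosed the KO range of Timm21. The 5 log2 fold changes of this complex ran from -0.046 for Timm21 to 0.071 for Timm17a, all smaller than their SEs. Under equal library totals Timm17b, Timm23 and Timm50 turned from above to below 0.

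In the import motor, Grpel1 is the nucleotide exchange factor of mitochondrial Hsp70. It held 1097, 1120 and 1224 normalised counts in KO libraries, against 1099, 1084 and 1024 in WT libraries, so the lowest KO and highest WT libraries overlapped slightly. The log2 fold change was 0.10 (SE 0.063), with a 95% interval from -0.034 to 0.24. Pam16, which controls the J-protein of the motor, held 95.5, 79.5 and 99.3 in KO libraries and 93.8, 79.0 and 80.4 in WT libraries, with an SE of 0.15 on its log2 fold change of 0.11; it overlaps the more abundant Glis2, so these counts are uncertain. Timm44, which tethers the motor to the channel, held 664, 713 and 746 in KO libraries, against 745, 705 and 720 in WT libraries, a log2 fold change of -0.033 (SE 0.067). Dnajc19, the J-protein, was at -0.017 with an SE of 0.13.

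The matrix processing peptidase is a dimer of Pmpca and the catalytic Pmpcb. Pmpca held 1765, 1805 and 1716 normalised counts in KO libraries, against 1835, 1790 and 1860 in WT libraries. Pmpcb held 733, 842 and 793 in KO libraries, against 701, 748 and 757 in WT libraries. The subunits lay on opposite sides of 0, at -0.054 (SE 0.051) and 0.10 (SE 0.070), and each overlapped between groups.

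**Figure D3:**
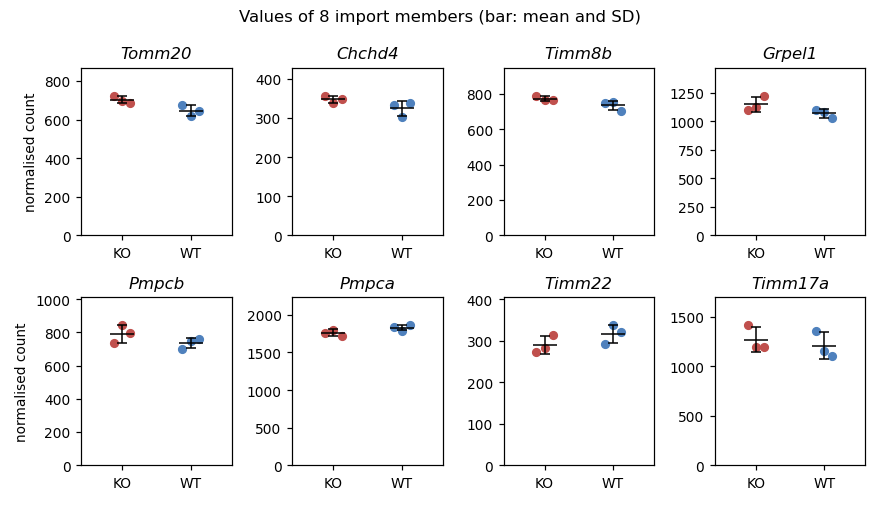
Normalised counts, from 0, of 8 import members in the 3 KO (red) and 3 WT (blue) libraries, with mean and SD in black. The Tomm20, Chchd4 and Timm8b points of KO lie above those of WT, the Chchd4 ones barely, and in the other 5 genes the groups overlap.

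Ratios between paralogs or partners within a library do not depend on scaling between libraries. The Pmpca to Pmpcb ratio was 2.24 ± 0.147 in KO and 2.49 ± 0.117 in WT hearts (SD, n = 3 each), a log2 difference of -0.15. An exact permutation test, 2-sided, gave p = 0.2 for it, where 3 against 3 libraries cannot give a p below 0.1. The Chchd4 to Gfer ratio was 1.76 ± 0.194 in KO and 1.59 ± 0.126 in WT hearts (exact permutation p = 0.4). The Timm17a to Timm17b ratio was 6.37 ± 0.999 in KO and 6.30 ± 0.831 in WT hearts (exact permutation p = 0.9). The ratio of Grpel1 to its paralog Grpel2 was 3.28 ± 0.409 in KO and 3.12 ± 0.273 in WT hearts (exact permutation p = 0.6). The Timm9 to Timm10 ratio was 0.590 ± 0.0832 in KO and 0.598 ± 0.13 in WT hearts (exact permutation p = 1). The groups overlapped in all 10 ratios, and each exact permutation p rounded to 1 after adjustment over the 10.

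**Figure D4:**
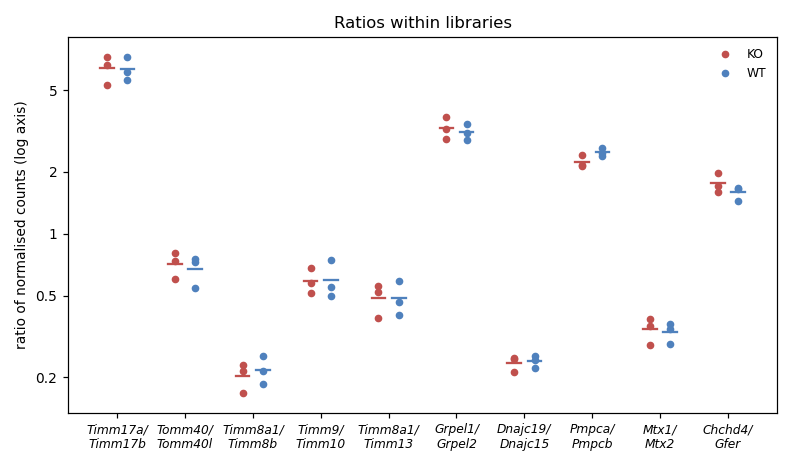
Ratio of normalised counts of 2 import genes in each library, on a log axis, for KO (red) and WT (blue), with lines at the group means. The KO and WT points overlap in every one of the 10 ratios.

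For most members the libraries of 1 group differed more than the groups did. The difference of group means was below 1 within-group SD in all but 8 of the 34 members, and above 2 SDs in 1, Tomm20. How many of all tested features lay below 1 or above 2 SDs was not counted. The median within-group coefficient of variation was 7.17%, against 5.41% from counting alone, and 10.6% and 7.99% over the 16797 features in the same range of means. In 13 members the spread was over 1.5 times the counting error, most of all in Timm17a (10.6% against 2.86%) and Tomm40l (12.8% against 3.77%). Tomm40l, a paralog of the channel gene, held 776, 659 and 643 normalised counts in KO 492, 499 and 501, against 860, 665 and 684 in WT 490, 498 and 502, so the same libraries were high as for Timm17a. KO 492 was the highest library in 11 of the 34 members, KO 501 in 9 and WT 490 in 6. WT 490 was also the lowest library in 9, the most of any library. The same counts over all features were not made. Timm10b, a small TIM of the TIM22 complex singled out after its values were seen, was at 278 in KO 492 but 190 and 186 in KO 499 and 501, against 236, 224 and 211 in WT libraries.

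**Figure D5:**
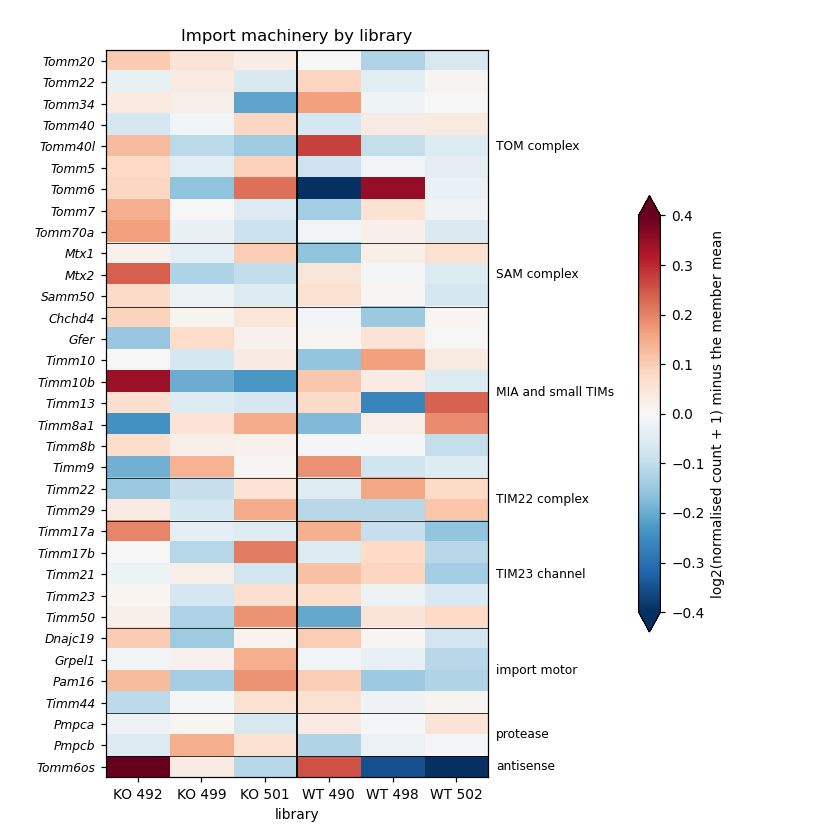
Log2(normalised count + 1) of each import member in each library, minus the member's mean over the 6 libraries, with the 3 KO libraries on the left and roles on the right. Colours are capped at 0.4 in either direction and KO 492 and WT 490 share high values of Timm17a and Tomm40l.

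Summed over the 34 members, the machinery held 18256, 17461 and 17731 normalised counts in KO 492, 499 and 501, against 17892, 17398 and 17395 in WT 490, 498 and 502. The groups overlapped, and the means differed by 1.45%. As a share of reads outside mitochondrial DNA, a scale with another total, the members took 0.136%, 0.132% and 0.131% in KO libraries and 0.129%, 0.129% and 0.129% in WT libraries, which did not overlap. Reads of mitochondrial DNA features enter neither side of this share, and the cause of the difference was not tested. This share was not computed for other genes, so the difference is not shown to be particular to the members. The sums by role differed by -0.496% for the peptidase, 0.832% for SAM and 0.941% for the Mia40 and small TIM list. They differed by 1.32% for the TOM list, 1.82% for TIM22, 2.72% for the TIM23 channel and 3.42% for the motor. The TOM list includes Tomm34 and the paralog Tomm40l.

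Among related genes outside the naming rule limma made no call either. Of 17 tested genes on a broader list, limma called 0, with 10 above 0 and a median of 0.030. That list holds import factors and other mitochondrial genes, among them Timmdc1 and Hscb. Hspa9, the Hsp70 of the motor, averaged 5593 ± 155 normalised counts in KO and 5468 ± 110 in WT hearts. The members of that list with the smallest p were Mtx3, another metaxin (411 ± 36.1 normalised counts in KO and 460 ± 33.1 in WT hearts, log2 fold change -0.17), and Immp1l, a subunit of the inner membrane peptidase (-0.30, SE 0.19). Of 21 twin-cysteine proteins that Mia40 oxidises, 0 were called and 11 lay above 0 (median 0.017), with Coa5, a cytochrome oxidase assembly factor, at -0.089 and Chchd5 at 0.29. Of 7 genes of the MICOS complex, which bridges to SAM, 0 were called (median 0.042), with Chchd6 at 0.49 (SE 0.29) and Chchd3 at 0.054. Of 9 cytosolic chaperones that deliver precursors, 0 were called (median -0.010), with the co-chaperones Dnaja2 at 0.082 and Stip1 at -0.092. Over these lists, Stip1 and Coa5 were lower in KO without overlap, and Cox6b1, a Mia40 substrate, was higher without overlap. In all tested features 4.61% were higher and 4.9% lower without overlap. No gene of these lists had an unadjusted limma p under 0.05.

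Reads could be shared between features for some members. In the RefSeq annotation 18 of the 34 tested members overlap another gene, and the sources used here do not give the strand setting of the counting. Dnajc19 overlaps Fxr1 over 12701 bases, and Fxr1 averaged 1828 normalised counts against 116 for Dnajc19. Pam16 overlaps Glis2 over 8481 bases, and Glis2 averaged 167 against 87.9 for Pam16. Tomm6 overlaps Frs3, Usp49 and Tomm6os, at means of 71.2, 109 and 11.6 against its own 43.2. Tomm6os overlaps Frs3 and Prickle4 too, at means of 71.2 and 22.2. In these 4 members an overlapping gene had the higher mean, and their values are uncertain for that reason.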

How the data were processed

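Total RNA in 6 heart libraries (3 KO, 3 WT) was analysed, and the libraries of mitochondrial RNA ends in the series were not used here. DESeq2 1.22.2, R 3.5.2, featureCounts, Bowtie2 2.3.4.1 and bedtools are listed in the submitters' processing notes. Per the file headers, the authors deposited normalised counts (a signal per gene, here found to be gene counts divided by 1 size factor per library, since 100% of 156689 values above 0 came out as whole reads within 0.01) and a comparison with log2 fold changes, a test score and p-values.

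Features with a mean of at least 10 were tested on log2(value + 1), which understates changes of low genes, with limma 3.58.1 (trended prior, Benjamini-Hochberg adjustment, threshold 0.05) under R 4.3.3. The fit was tested on simulated data. Alternatives were other pseudocounts, filters, scalings and moderation, edgeR 4.0.16 and DESeq2 1.42.0 on recovered reads, and leaving out each library. Intervals are 95%. No library was a copy of another. Genes named by rule were the core subunits and the members nearest the mean of 10. The rule also took the 2 genes with the smallest p in each role list and in each other list. Genes outside the rule were named too, among them Tomm40l, Timm10b, Timm21, Tomm34, Gfer, Dnajc19, Hspa9 and Cox6b1. Members, lists and tests were chosen with earlier results of these data known. Library numbers are those of the deposited columns. Symbols were joined to the deposited Ensembl IDs without their version number, which matched 54686 of 54751 features.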

Additional observations from a re-analysis of the deposited data

How the results depend on the processing

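In all 17 alternatives, 0 members were called, and the lowest adjusted p of a member was 0.592 (Pmpca under equal library totals, limma, log2 fold change -0.12). An adjusted p existed for only 16 members with DESeq2 and for 23 in the authors' deposited table. The 4 features called by limma became 33 in the authors' deposited table, 31 with DESeq2, 37 with equal totals, 12 with robust moderation, 12 with no filter, 0 without the trend, and 1 to 8 leaving out 1 library (8 without WT 490, and 1 without KO 499, WT 498 or WT 502). The members with an unadjusted p under 0.05 numbered 1 with equal totals and 0 to 1 leaving out a library (Timm10b at -0.24 without KO 492). The members' median was -0.062 with equal totals, where that of all features was -0.069, and 0.00071 to 0.051 leaving out a library (lowest without KO 501 and highest without KO 499). Among the members named by rule, equal totals turned the sign of Mtx1 (-0.016), Mtx2 (-0.059), Samm50 (-0.069), Timm17b (-0.012), Timm23 (-0.065), Timm50 (-0.020), Tomm40 (-0.068) and Tomm70a (-0.039). That setting scales to totals of which most reads are mitochondrial DNA features.

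Leaving out a library in turn gave, among the same members, log2 fold changes of either sign, none called, for Mtx1 (-0.015 to 0.096), Mtx2 (-0.11 to 0.076), Samm50 (-0.037 to 0.032), Timm10 (-0.11 to 0.048), Timm17a (-0.0091 to 0.16), Timm17b (-0.029 to 0.13), Timm23 (-0.026 to 0.042), Timm44 (-0.072 to 0.011), Timm50 (-0.040 to 0.12), Timm9 (-0.11 to 0.054), Tomm40 (-0.040 to 0.036) and Tomm70a (-0.043 to 0.083). Log2 ratio differences did so for Grpel1 to Grpel2 (-0.023 to 0.16), Dnajc19 to Dnajc15 (-0.081 to 0.043), Mtx1 to Mtx2 (-0.052 to 0.16), Timm17a to Timm17b (-0.083 to 0.14), Timm8a1 to Timm13 (-0.12 to 0.16), Timm8a1 to Timm8b (-0.21 to 0.033), Timm9 to Timm10 (-0.13 to 0.16) and Tomm40 to Tomm40l (-0.067 to 0.20). The cause of these turns was not tested. No paired analysis was possible because the table's columns carry library numbers and no replicate numbers shared between groups, so a replicate block was not run. Depth limits Tomm6 and Tomm6os most.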
